A study of Mus musculus with 2 samples.

Results

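Classical monocytes were examined in single-cell RNA sequencing (scRNA-seq) data of 2 blood libraries that had been enriched for neutrophils. The 2266 cells were chosen by measured values: they were selected on the counts of 17 genes, and made up 1271 of 17123 cells of the WT library and 995 of 17645 cells of the APP/PS1 library, 34768 cells in all. A cell was kept with at least 1000 unique molecular identifiers (UMIs, each counting 1 captured mRNA molecule), at most 10% of UMIs from mitochondrial genes, and under 4% from S100a8 and S100a9, the calcium-binding protein genes that dominate neutrophils. It also had at least 1 UMI of Csf1r, no Cd79a, under 4 UMIs of the platelet genes Ppbp and Pf4, and under 10 UMIs of the MHC class II genes H2-Aa, H2-Ab1 and H2-Eb1. It held at least 5 UMIs of Ccr2, F13a1, Fn1 and Ly6c2 together, and more than 2 times as many UMIs of these as of the nonclassical genes Ace, Adgre4, Ear2 and Eno3.

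The study asked how blood neutrophils differ in a mouse model of Alzheimer's disease. Each library pooled blood cells of 3 female mice aged 7 months, either wild type (WT) or carrying the APP/PS1 transgenes of this disease model. The promoter of the transgenes, the founder line and the strain of the WT donors of this library (C57BL/6J mice were bought for the study) are not given in the sources used here, and the labels record no treatment. Red cells were lysed and neutrophils were enriched with a kit that removes other cells, and the labels of both libraries read neutrophil, so the monocytes are cells that this enrichment left behind. With 1 library per genotype, no test of a genotype difference could be made, and an effect of genotype, of the pool and of the library cannot be told apart. Intervals are at the 95% level and cover counting error only.

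Classical monocytes are released from the bone marrow, circulate for a short time and enter inflamed tissue, for which they depend on the chemokine receptor CCR2. In the mouse they carry the surface protein Ly6C at a high level, whereas nonclassical monocytes, which arise from them under the transcription factor NR4A1, patrol the vessel wall with little Ly6C and CCR2. Monocytes engulf particles, sense bacterial products through CD14 and Toll-like receptors, and answer interferon and tissue damage with chemokines.

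The selected cells carried the label's marker genes. Levels are given as UMIs of a gene per 1000000 UMIs summed over the selected cells of a library (CPM). They are not compared between genes, except to name the most abundant gene of a set. Ccr2 had 1303 CPM in the WT and 1204 CPM in the APP/PS1 library, against 51.9 and 36.4 CPM in nonclassical monocytes, which were selected with the opposite ratio of the same genes. F13a1, coagulation factor XIII, had 889.7 and 853 CPM, and Fn1, fibronectin, had 1153 and 1238 CPM. Ly6c2, which encodes Ly6C, had 1892 and 2191 CPM. It has a near-identical neighbour, Ly6c1, so reads may be divided between these genes and its level is uncertain. As these genes chose the cells, their levels are a description only. The lysozyme gene Lyz2, which the selection did not use, had 18473 and 21990 CPM in classical against 6382 and 6208 CPM in nonclassical monocytes.

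**Figure D1:**
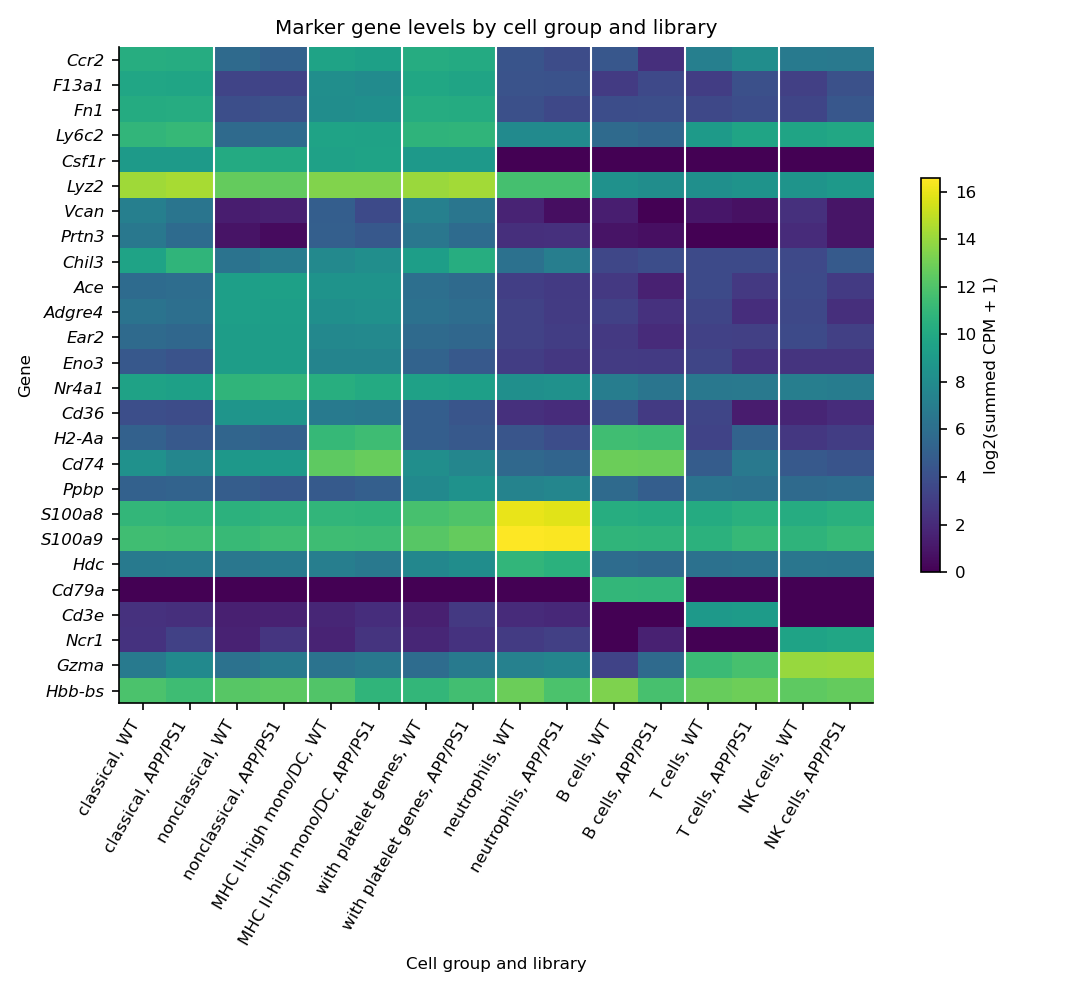
Summed expression of marker genes (rows) in 8 groups of cells of the WT and APP/PS1 libraries (columns), coloured by log2(CPM + 1). Classical monocytes held Ccr2, F13a1, Fn1 and Ly6c2 with Vcan and Prtn3, and nonclassical monocytes held Ace, Adgre4, Ear2, Eno3 and Cd36, in both libraries.

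Few cells lay close to the minimum of 5 UMIs of the classical genes. More lay at the platelet and Csf1r limits and at the limit on the ratio of classical to nonclassical genes. With 5 UMIs of the classical genes, the lowest number allowed, 6 WT and 12 APP/PS1 cells were kept, and 7 and 11 cells with 4 UMIs were left out. Just under the platelet limit, with 3 UMIs, lay 170 and 133 cells, and 108 and 98 cells with 4 UMIs lay just above it. Next to the limit on the ratio of classical to nonclassical genes, 53 WT and 44 APP/PS1 cells were kept and 62 and 45 were left out. The Csf1r limit alone left out 265 WT and 420 APP/PS1 cells. Many of these held lymphocyte transcripts. Gzma, a granzyme of natural killer (NK) and T cells, was seen in 58.9% (52.7 to 64.9) of them in the WT and 74.5% (70.1 to 78.6) in the APP/PS1 library, and Lyz2 was at 6983 and 4122 CPM. Ly6c2, which NK and T cells express as well, was at 2083 and 1986 CPM in these cells.

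Classical monocytes were 7.81% (7.40 to 8.23) of the WT cells that passed the UMI and mitochondrial limits and 5.95% (5.60 to 6.32) of the APP/PS1 cells, a difference of -1.86 percentage points (-2.40 to -1.31). The share depended on what it was set against. Among cells under the S100a8 and S100a9 limit it was 15.97% in WT and 13.5% in APP/PS1, a difference of -2.50 points (-3.62 to -1.38). Among the monocytes that had passed every limit up to MHC class II it was 32.3% and 32.9%, a difference of 0.614 points (-1.60 to 2.84). Of classical and nonclassical monocytes together, the classical cells made up 37.9% (36.3 to 39.6) in WT and 41.7% (39.7 to 43.7) in APP/PS1, a difference of 3.74 points (1.18 to 6.31) in the opposite direction. The enrichment for neutrophils can set all of these shares.

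The cells were read to a like depth in both libraries. The WT cells summed to 11043465 UMIs and the APP/PS1 cells to 8053428, with medians of 8178 and 7773 UMIs and of 2617 and 2476 genes per cell. After each cell was thinned to 1000 UMIs, the medians were 627 and 614 genes. Nonclassical monocytes were shallower, at 4331 and 4648 UMIs per cell, but when thinned they reached 635 and 629 genes. Scrublet, which compares cells with simulated pairs, called 13.3% of the WT and 9.55% of the APP/PS1 classical monocytes doublets. The cells of the libraries shared 83 barcodes, 1 of them among classical monocytes.

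Transcripts of other blood cells were present among the selected cells and differed between the libraries. The 9 genes of the erythroid list summed to 7324 and 5552 CPM in the WT and APP/PS1 cells, chiefly from Hbb-bs, a haemoglobin chain. In WT 15.3% and in APP/PS1 3.72% of the cells held over 10 UMIs of that list. The 9 NK genes summed to 176 and 377 CPM, the 10 platelet genes to 390.1 and 497 CPM and the 14 neutrophil genes, led by Retnlg, to 1230.3 and 1306 CPM. Over 10 UMIs of the NK list were seen in 22 WT and 35 APP/PS1 cells, and these cells held 88.2% and 92.0% of its UMIs. S100a8 and S100a9 made up under 0.5% of UMIs in 87.5% and 85.5% of the cells, and 1% to 4% in 10.1% and 11.8%. The T cell list, led by Trbc2, summed to 45.1 and 63.1 CPM, the B cell list, led by Ighm, to 193 and 208 CPM, the basophil list to 3.80 and 7.95 CPM, and the plasma cell and dendritic cell list, led by Bst2, to 222 and 276 CPM. The basophil gene Prss34, the T cell gene Cd4 and the dendritic cell gene Xcr1 were at 0 in at least 1 library. The part of these cells and transcripts in the results below was not tested, except where values without them are given.

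Haemoglobin genes varied most between single classical monocytes. Variation was measured in cells thinned to 1000 UMIs as the variance over the mean, which is near 1 where a gene varies by counting alone, and its median over 2716 genes was 1.02 in WT and 1.03 in APP/PS1. The 10 genes with the highest values in both libraries began with the haemoglobins Hbb-bs, at 190 and 144, Hba-a1, Hba-a2 and Hbb-bt, whose near-identical copies may share reads. Next came Ccl5, at 25.2 and 27.1, and Gzma, at 13.5 and 14.7, genes of cytotoxic lymphocytes. S100a9, S100a8 and Gm42418, a gene model that overlaps ribosomal RNA, followed. As the selection limited S100a8 and S100a9, their spread is a description only. The last was Il1b, the inflammatory cytokine interleukin 1 beta, at 4.29 and 4.69. Among the genes behind these 10 were Apoe, at 3.09 and 3.92, and Chil3, at 2.04 in WT and 4.51 in APP/PS1. Il1b was seen in 88.9% of WT and 88.4% of APP/PS1 cells, and in 60.1% and 59.4% of T cells, at lower depth. At 1000 UMIs per cell the shares were 37.5% and 39.1% in classical monocytes and 23.7% and 30.1% in T cells. Il1b was thus also detected in cells of another lineage in the same droplet runs.

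Set against nonclassical monocytes, the cells differed in many genes beyond those that chose them. As the same cells and libraries gave both the choice and the levels, these ratios are a description. The largest ratios were those of Prtn3, proteinase 3 of the azurophil granule, with 98.0 against 0.851 CPM in WT and 53.3 against 0.414 CPM in APP/PS1, where the nonclassical level rested on 3 UMIs. The log2 ratio of classical over nonclassical cells was 6.85 (5.92 to 7.98) in WT and 7.01 (5.45 to 9.29) in APP/PS1. Vcan, the matrix proteoglycan versican, had log2 ratios of 6.57 and 5.60. Neither gene was particular to the selected cells. In cells that met every other limit but held 4 or more UMIs of platelet genes, the WT and APP/PS1 levels of Prtn3 were 92.8 and 53.2 CPM, and those of Vcan were 144 and 87.98 CPM, close to the 143 and 87.2 CPM of the classical cells. MHC class II-high monocytes and dendritic cells had 30.9 and 22.7 CPM of Prtn3 and 29.9 and 12.5 CPM of Vcan. Gas7, Itga1, Mfsd7a, Olfm1, Cd177, Aoah, Cd93 and Atrnl1 completed the 10 highest by the smaller of the 2 libraries' ratios, with 3.88 or more in both. Aoah encodes an enzyme that inactivates lipopolysaccharide and Itga1 an integrin that binds collagen. On the other side stood Cd300e, Adrb1, Fabp4, Cd36, Slc12a2, Lilra5, Tgm3, Rps6ka2, Dusp16 and Cited4. Of 17 further classical markers that had enough UMIs, 14 were higher in classical cells of both libraries by the threshold of 0.5 in log2 and 1, Ly6a, was lower, with log2 ratios of -2.34 in WT and -1.33 in APP/PS1. Of 19 nonclassical markers none was higher and 19 were lower. Over 6552 genes outside the selection the shares were 12.6% and 13.5%.

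Most genes had similar levels in WT and APP/PS1 classical monocytes. Of 7036 genes with at least 200 UMIs, 108 (1.53%) were higher in the APP/PS1 library by at least 0.5 in log2, and 132 (1.88%) were lower by as much. All 240 had counting intervals beyond 0, which the minimum of 200 UMIs and the threshold of 0.5 fix in advance. This adds no support to the calls. The median log2 ratio was -0.03, with a standard deviation of 0.233 over genes, and 19 genes were higher and 12 lower by 1 or more. Such calls compare these libraries, not the genotypes. In the following, a pair of levels gives WT first and APP/PS1 second, and a value in brackets after it is the log2 ratio of APP/PS1 over WT. The genotype labels could not be checked, since the mm10 reference holds the mouse genes and not the human transgenes. Mouse App had 278 and 241 CPM.

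**Figure D2:**
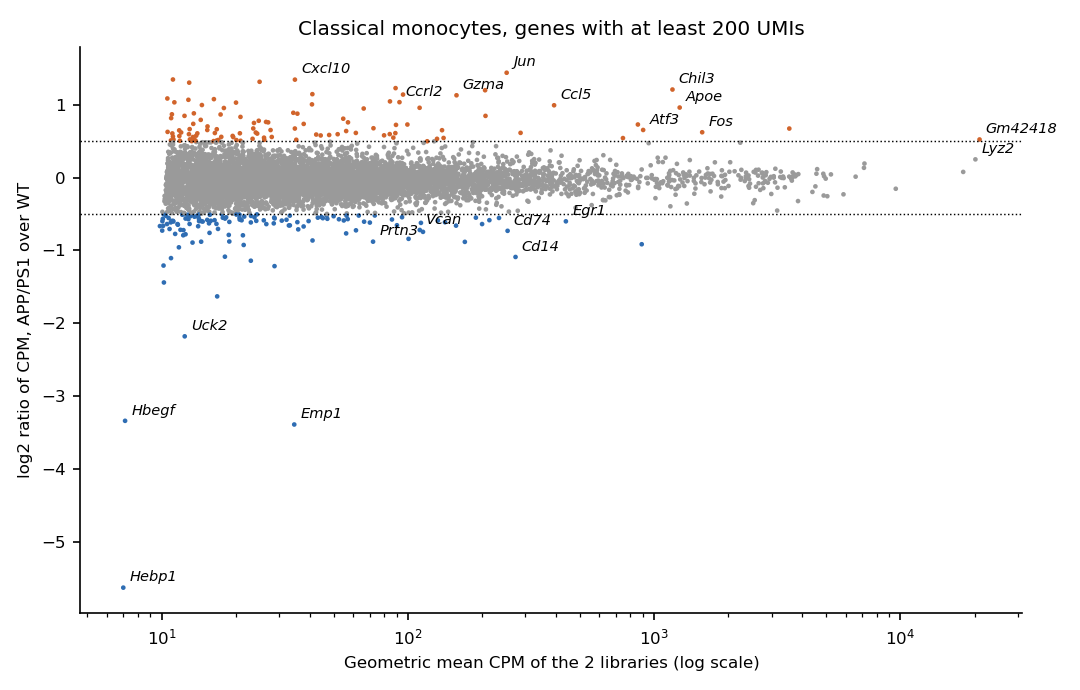
Log2 ratio of CPM in APP/PS1 over WT classical monocytes (vertical) against the geometric mean CPM (horizontal, log scale) of 7036 genes. Dotted lines mark 0.5 and -0.5, orange points are the 108 higher and blue points the 132 lower genes, and the bulk of the genes lies between the lines.

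Among genes with at least 200 UMIs in 1 library, the highest ratio belonged to Jun, which encodes a subunit of the AP-1 transcription factor and responds within minutes to stress (chr4:95049034-95052222, mm10, minus strand). It had 153 CPM (146 to 160.3) in WT and 415 CPM (401 to 429) in APP/PS1, a log2 ratio of 1.44 (1.36 to 1.53). Jun was seen in 52.6% of WT and 78.2% of APP/PS1 cells, and in 13.1% and 30.5% of cells thinned to 1000 UMIs. The difference was thus carried by many cells. In B cells of the same libraries, thinned in the same way, Jun was seen in 15.4% and 27.4%, and its log2 ratio was 0.67 in B cells, 0.64 in T cells and 0.50 in NK cells.

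Other genes of the immediate early response moved both ways. Of 37 tested genes of this list, 6 were higher and 4 lower, against 1.53% and 1.88% of all tested genes, with a median log2 ratio of 0.18. Fos, the partner of Jun, had 1262 and 1945 CPM (log2 ratio 0.62). Atf3, a stress-induced repressor, had 719 and 1132 CPM (0.66), and Zfp36, which destabilises inflammatory mRNAs, had 667 and 1107 CPM (0.73). The small GTPase gene Rhob had 80.05 and 156 CPM (0.96) and Egr3 had 6.97 and 17.8 CPM (1.35). In contrast, Egr1, a zinc finger factor, was lower, with 540 and 356 CPM (-0.60), and so were Fosl2, with 249.7 and 161 CPM (-0.64), Fosb (-0.55) and Ier3 (-0.52). Egr1 was at -1.15 when cells with 1% or more of S100a8 and S100a9 were left out. Junb, the most abundant gene of the list, had 1809 and 1588 CPM (-0.19).

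Interferon-stimulated genes leaned towards the APP/PS1 library. Of 41 tested genes, 34 had a ratio above 0, as did 41.8% of all tested genes. By the threshold 6 were higher and 1, Oas1g, was lower (12.4 and 7.82 CPM, -0.67), against 1.53% and 1.88% of all tested genes. The median was 0.21, against -0.03 over all genes. Ifit2, Ifit3, Ifit3b and Ifit1 encode proteins that bind viral RNA, and Rsad2 encodes the antiviral enzyme viperin. Ifit3 had 41.3 CPM (37.6 to 45.3) in WT and 72.4 CPM (66.6 to 78.5) in APP/PS1. Rsad2 had 77.3 and 128 CPM, a log2 ratio of 0.73 (0.60 to 0.86), and Ifit2 had 26.3 and 48.3 CPM (0.88). In cells thinned to 1000 UMIs Rsad2 was at 0.4988, under the threshold. Ifit3 and Ifit3b are close copies and may share reads. Ifitm3, the most abundant gene of the list, had 4408 and 4781 CPM (0.12).

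Many promoters of these genes hold the letters of the element through which interferon signals are known to act. The interferon-stimulated response element was searched as GAAANNGAAA on both strands in the 250 bases before and 50 after each gene start in RefSeq (GRCm38.p6). It was found in 3.44% of all 32851 promoters. Counted by gene, it was found in 3.99% of 27025 genes with a promoter in the table, in 4.54% of the 5680 of them with at least 200 UMIs, in 18 of 32 listed interferon genes (56.2%), and in 5 of the 6 higher genes, Ifit1, Ifit1bl1, Ifit3, Ifit3b and Rsad2. The chemokine gene Cxcl10, described next, held it too. The list was made of interferon-stimulated genes, so its high share describes the list and is not a result of these data. The same holds for the higher genes within it. A match is a description of the sequence and not evidence of binding. The 250 bases before the start are shown for 4 genes, in the direction of transcription, with each match in capitals, because these genes were past the threshold and their windows hold the element. They lie at chr19:34640639-34640888 (plus strand, Ifit1), chr19:34583279-34583528 (plus strand, Ifit3), chr12:26456453-26456702 (minus strand, Rsad2) and chr5:92348890-92349139 (minus strand, Cxcl10).
Ifit1: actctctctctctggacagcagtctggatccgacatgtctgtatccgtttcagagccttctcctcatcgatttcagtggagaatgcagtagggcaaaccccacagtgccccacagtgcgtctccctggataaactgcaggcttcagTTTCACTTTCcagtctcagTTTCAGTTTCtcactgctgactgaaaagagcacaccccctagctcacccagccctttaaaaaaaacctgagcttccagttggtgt
Ifit3: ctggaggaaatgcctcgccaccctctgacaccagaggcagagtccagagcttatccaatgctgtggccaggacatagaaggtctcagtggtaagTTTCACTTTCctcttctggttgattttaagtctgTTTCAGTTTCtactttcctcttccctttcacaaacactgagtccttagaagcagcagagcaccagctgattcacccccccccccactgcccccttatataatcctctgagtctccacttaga
Rsad2: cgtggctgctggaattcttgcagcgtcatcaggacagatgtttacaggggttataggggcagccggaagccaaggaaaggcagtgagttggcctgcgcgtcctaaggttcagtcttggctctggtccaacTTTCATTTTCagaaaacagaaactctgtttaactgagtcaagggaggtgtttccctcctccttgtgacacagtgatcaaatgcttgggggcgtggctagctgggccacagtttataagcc
Cxcl10: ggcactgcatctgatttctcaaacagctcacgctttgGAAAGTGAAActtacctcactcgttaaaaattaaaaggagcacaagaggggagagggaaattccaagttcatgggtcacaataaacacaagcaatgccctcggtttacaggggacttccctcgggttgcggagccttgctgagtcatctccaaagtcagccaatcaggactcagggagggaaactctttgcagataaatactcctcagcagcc
Ifit1 and Ifit3 each held 2 matches of the same letters, in the same order, whereas Rsad2 and Cxcl10 held 1 each.

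Chemokine genes were next. Of 18 tested genes of chemokines and cytokines, 6 were higher and none was lower, against 1.53% and 1.88% of all tested genes. Their median was 0.20. The list summed to 4228 and 5047 CPM in classical monocytes. It reached 33175 and 31418 CPM in NK cells, 14305 and 23748 CPM in T cells and 23041 and 22042 CPM in neutrophils. The count is therefore not read as a trait of monocytes alone. Cxcl10, which draws T cells, had 21.8 CPM (19.2 to 24.8) in WT and 55.5 CPM (50.5 to 60.9) in APP/PS1, a log2 ratio of 1.35 (1.12 to 1.58). That interval takes each UMI as independent and does not cover the spread between cells. Few cells held Cxcl10. It was seen in 3.70% (2.73 to 4.89) of WT and 5.03% (3.75 to 6.57) of APP/PS1 cells, with up to 33 and 80 UMIs in 1 cell, and in no B cell, although B cells were read less deeply (medians of 4318 and 5578 against 8178 and 7773 UMIs). At 1000 UMIs per cell it was seen in 1.18% (0.662 to 1.94) of WT and 2.01% (1.23 to 3.09) of APP/PS1 classical monocytes, in 0 of 253 and 0 of 292 B cells, which allows shares of up to 1.45% and 1.26% by the exact interval, and in 0.439% and 0% of T cells. At that depth the intervals of classical monocytes and B cells overlapped in both libraries. The intervals of the WT and APP/PS1 shares of classical monocytes also overlapped, at that depth and before thinning. Ccl3 and Ccl4, which attract monocytes and lymphocytes, had 64.4 and 142 CPM (1.14) and 58.2 and 137 CPM (1.23). Osm (0.53) and Ltb (0.68) were the other higher genes besides Ccl5. Il1b had 966 and 1122 CPM (0.22), Ccl6, the most abundant of the list, 1159 and 1322 CPM (0.19), and Tnf 19.7 and 15.02 CPM (-0.39).

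NK transcripts moved with part of the chemokine difference. Ccl5 had 278 and 554.0 CPM (0.99), and 92.8% of its WT and 93.4% of its APP/PS1 UMIs lay in the 5% of cells with most of it. Of the lists of other cells, the neutrophil list had Cxcr2 higher (0.68) and Il1r2 lower (-0.56), the platelet list had Gp9 higher (0.65), the B cell list Igkc (0.62) and the T cell list Trbc2 (0.67), and nothing is read from such single genes. All 4 tested NK genes were higher, against 1.53% of all tested genes: Gzma (1.13), Nkg7 (1.15), the perforin gene Prf1 (0.96) and Gzmb (0.56). Nkg7 ranged from 0.65 in cells with at least 10 UMIs of the classical genes to 1.70 for means over cells. Klrd1, a receptor subunit of NK cells that was listed with the MHC class II and dendritic cell genes, was higher as well (1.31). With each cell holding a UMI of the NK list left out, 1069 WT and 783 APP/PS1 cells remained. Then the log2 ratio of Ccl5, which was 1.93 with called doublets left out, was 0.59, that of Ccl4 0.70 and that of Ccl3 0.95, while Cxcl10 was at 1.42 and Jun at 1.40.

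Chil3, Apoe and Trf stood out among abundant monocyte genes. Chil3, a chitinase-like secreted protein that marks classical monocytes fresh from the marrow (chr3:106147554-106167564, minus strand), had 780.2 CPM (764 to 797) in WT and 1806 CPM (1777 to 1835) in APP/PS1. The log2 ratio was 1.21 (1.17 to 1.25). The shares of cells with a UMI were close, at 73.6% and 76.3%, so the levels per cell differed more than the number of cells. In thinned cells Chil3 was seen in 39.8% and 55.1%, and the highest cell before thinning held 61 UMIs in WT and 130 in APP/PS1. B cells showed it in 4.74% and 5.14%, at median depths of 4318 and 5578 UMIs. Chil3 had 78.1 and 120 CPM in nonclassical monocytes and 70.0 and 135 CPM in neutrophils. It had 226 and 284 CPM in MHC class II-high monocytes and dendritic cells, and 620 and 1282 CPM in monocytes with platelet genes.

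Apoe, apolipoprotein E, carries lipids and holds the main common risk alleles for Alzheimer's disease in humans (chr7:19696109-19699188, minus strand). It had 909 CPM (892 to 927) in WT and 1773 CPM (1744 to 1802) in APP/PS1 classical monocytes, 1.95-fold more (log2 ratio 0.96). Cells that met every limit for classical monocytes but that on platelet genes (647 and 535 cells) had 833 and 1390 CPM (0.74), also past the threshold, and MHC class II-high monocytes and dendritic cells had 1751 and 2219 CPM (0.34). In nonclassical monocytes, neutrophils and lymphocytes the ratio was below 0. Nonclassical monocytes had 2481 and 2197 CPM (-0.18) and neutrophils 192 and 163 CPM (-0.23). B cells had 861 and 675 CPM (-0.35), T cells 42.5 and 36.3 CPM, and NK cells 49.8 and 35.6 CPM. The lymphocytes thus differed widely among themselves, and the part of free RNA in these levels was not tested. At 1000 UMIs per cell Apoe was seen in 40.4% and 55.0% of classical monocytes, in 37.5% and 36.6% of B cells and in 2.19% and 2.61% of T cells. At least 5 UMIs in a thinned cell were held by 3.78% of WT and 13.8% of APP/PS1 classical monocytes. Of 24 tested Alzheimer risk genes of myeloid cells, Apoe was the only one higher and Cass4 the only one lower (39.8 and 27.7 CPM, -0.52), which is near the 1.53% and 1.88% of all tested genes and no result about the list. Trem2, the lipid receptor of microglia, had 61.8 and 47.8 CPM (-0.37), and its adaptor Tyrobp 3561 and 3742 CPM (0.07).

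**Figure D3:**
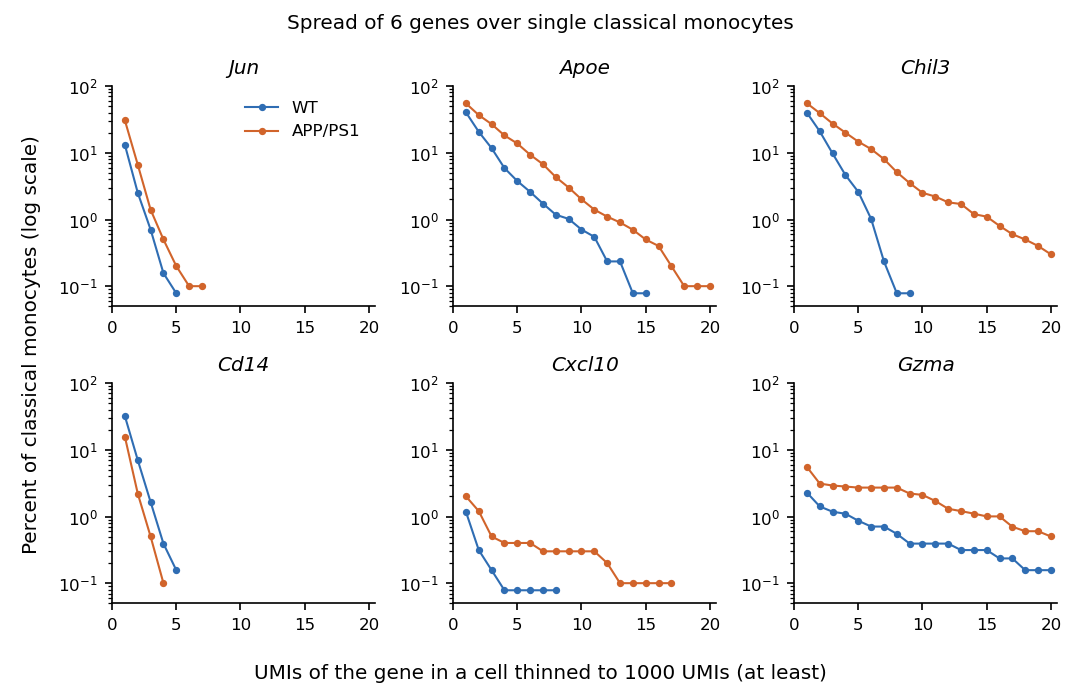
Percent of classical monocytes (log scale) that held at least the given number of UMIs of 6 genes, after each cell was thinned to 1000 UMIs, in WT (blue, 1271 cells) and APP/PS1 (orange, 995 cells). Apoe and Chil3 had a longer upper tail in APP/PS1 cells, Jun and Cd14 were shifted over the whole range in opposite directions, and Gzma and Cxcl10 were confined to few cells.

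Trf, the iron carrier transferrin (chr9:103204001-103230444, minus strand), had 135.8 CPM (129 to 143) and 312 CPM (300.2 to 325), a log2 ratio of 1.20 (1.11 to 1.29). It was seen in 52.2% of WT and 77.3% of APP/PS1 cells, and in 1.58% and 4.45% of B cells. Nonclassical monocytes had 59.9 and 300.0 CPM (2.32). Arsb, a lysosomal sulfatase, had 15.85 and 39.5 CPM (1.32), and Pmaip1, which encodes the pro-apoptotic protein NOXA, 58.9 and 122 CPM (1.05). Ccrl2, an atypical receptor that binds chemerin and was the receptor gene of interest in the neutrophils of this study, had 64.6 CPM (59.9 to 69.5) and 132 CPM (125 to 141), with a log2 ratio of 1.04. Of 18 tested migration and adhesion genes it alone passed the threshold, near the 3.41% of all tested genes that did. Itgam had 311 and 313 CPM, and Cd44, the most abundant of them, 784 and 666 CPM (-0.24).

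Lists of effector functions are described by their levels. With 3.41% of all tested genes past the threshold in either direction, none or 1 gene in a list of this size is close to the background and is not a result about these functions. Of 24 tested lysosome and protease genes none passed the threshold, and the median was -0.07. Lyz2 had 18473 and 21990 CPM (0.25), and Cst3, the protease inhibitor cystatin C, 1894 and 2643 CPM (0.48). Of 18 NADPH oxidase and redox genes, 18 Fc receptor, scavenger and phagocytosis genes and 25 survival and cytokine receptor genes, none was higher or lower by the threshold. Cybb, the catalytic subunit of the oxidase, had 2174 and 2224 CPM, Fcer1g 2342 and 2373 CPM, and Csf1r, which was part of the selection, 522 and 525 CPM. The same held for 15 amyloid-handling genes, with a median of -0.10 and Psen2 lowest at -0.48, and for 4 cell cycle genes, with Hmgb2 at 536 and 563 CPM. Of 20 MHC class I genes only H2-Q7 was past it (49.7 and 76.1 CPM, 0.61), a gene with close copies in its family.

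**Figure D4:**
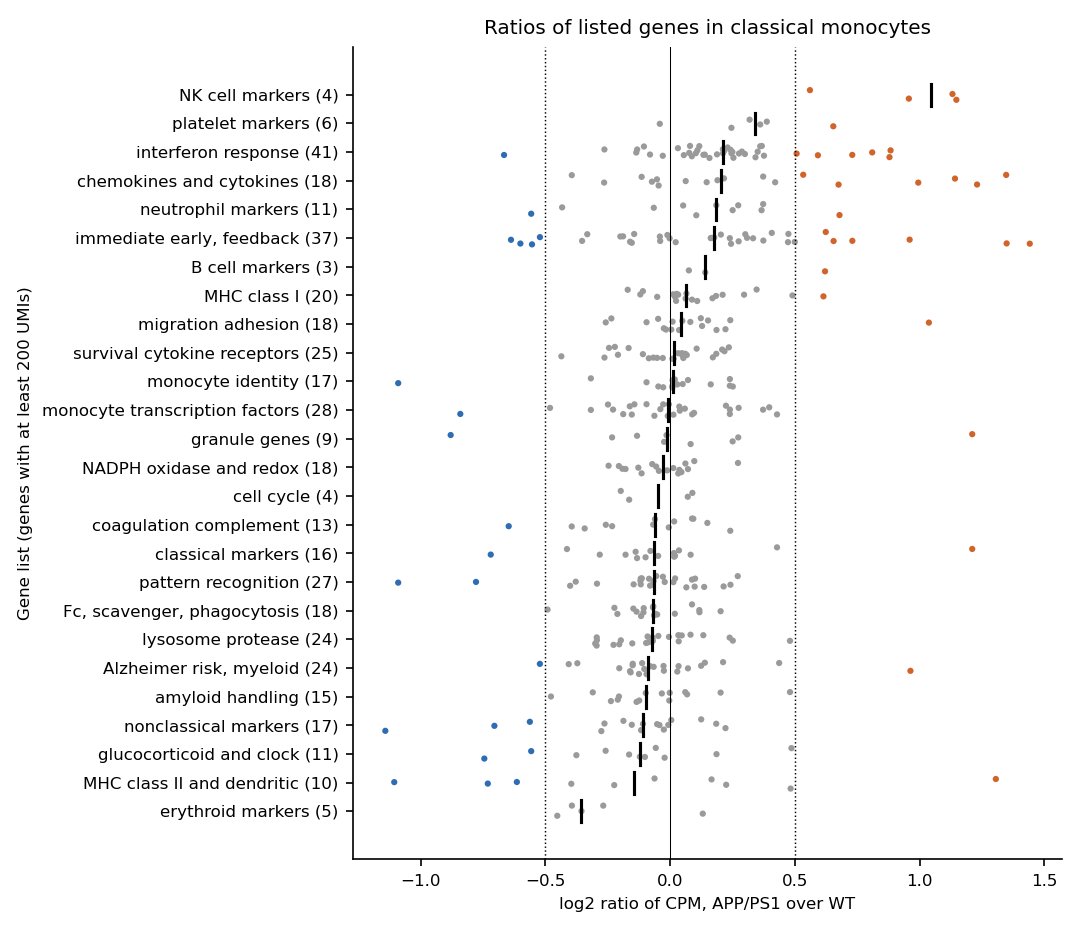
Log2 ratio of CPM, APP/PS1 over WT, of each tested gene (points) in 26 gene lists in classical monocytes, with the median of a list as a black bar and the number of its tested genes in brackets. The NK cell markers lie highest, interferon and chemokine genes are shifted to the right, and the immediate early genes spread to both sides.

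Among the genes lower in APP/PS1, Cd14 was the most abundant of the 10 lowest ratios. It encodes the co-receptor that hands lipopolysaccharide to Toll-like receptor 4, and had 399 CPM (388 to 411) in WT and 188 CPM (178 to 197) in APP/PS1, a log2 ratio of -1.09 (-1.17 to -1.005). It was seen in 83.9% and 56.2% of the cells, and in 7.51% and 4.11% of B cells. Of 27 tested pattern recognition genes, Cd14 and the peptidoglycan sensor Nod2 (16.4 and 9.56 CPM, -0.78) were lower and none was higher, against 1.88% and 1.53% of all tested genes. Partners of CD14 did not pass it, as Tlr4 had 10.5 and 11.5 CPM (0.14), Ly96 29.2 and 27.9 CPM (-0.07) and Myd88 85.03 and 81.8 CPM (-0.06).

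Of the genes with at least 200 UMIs in 1 library, the lowest ratio was that of Hebp1, a haem-binding protein gene, with 544 UMIs in WT and 8 UMIs in APP/PS1, or 49.3 and 0.993 CPM. The log2 ratio was -5.63 (-6.85 to -4.64). Hebp1 was seen in 23.5% of WT and 0.804% of APP/PS1 cells. Emp1, an epithelial membrane protein gene, had 112 and 10.7 CPM (-3.39) and was seen in 35.5% and 6.73%. Hbegf, a growth factor of the epidermal growth factor family, had 22.6 and 2.24 CPM (-3.34). Uck2, a nucleoside kinase gene (26.4 and 5.84 CPM, -2.18), the gene model Gm47283 on chromosome Y (-1.63), Vill (-1.22), the phosphatase gene Dusp16 (-1.14), Skint3 (-1.09) and Tgm2, transglutaminase 2 (-0.92), were the others of the 10 lowest. Gm47283 was the only tested gene that the annotation places on chromosome Y, although the mice were female. The source of its reads was not tested, and nothing about the sex of the cells is read from it. With called doublets left out, Dusp16 was at -0.63 and Tgm2 at -0.63. In cells thinned to 1000 UMIs Skint3 was at -1.90 and Tgm2 at -1.48. Hebp1, which rests on 8 UMIs in APP/PS1, was at -6.84 in cells between the 5th and 95th percentile of UMIs and genes. Hebp1, Emp1 and Dusp16 lie near each other on chromosome 6, and Hbegf and Cd14 on chromosome 18, with tested genes under the threshold between Dusp16 and Hebp1 and between Hbegf and Cd14. Hebp1 and Hbegf were thus well detected in WT and held under 20 UMIs in the APP/PS1 cells.

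Markers of the monocyte state were set against the 1.53% of all tested genes that were higher and the 1.88% that were lower. Of 16 tested further classical markers, Chil3 was higher and Vcan lower, and the median was -0.06. At 1 gene each way this list was close to the background. Vcan had 143 CPM (136 to 151) and 87.2 CPM (80.8 to 93.9), a log2 ratio of -0.72 (-0.85 to -0.59). Prtn3, which marks cells close to their marrow precursors, had 98.0 and 53.3 CPM (-0.88), and was seen in 44.8% and 28.4% of the cells, so Chil3 and Prtn3 differed in opposite directions. Plac8, the most abundant of these markers, had 4864 and 4931 CPM (0.02). Of 17 tested nonclassical markers, Dusp16, Slc12a2 (-0.70) and Fabp4 (-0.56) were lower, and Cx3cr1 had 235 and 274 CPM (0.22). Among 28 transcription factors of monocytes only Runx3 passed the threshold, a share near the background, with 135 and 75.2 CPM (-0.84), while Spi1, which encodes the lineage factor PU.1, had 619 and 580.0 CPM (-0.09) and Cebpb 2266 and 2223 CPM (-0.03).

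Antigen presentation and clock genes were read in the same way, against 1.53% higher and 1.88% lower of all tested genes. Of 10 tested genes of MHC class II processing and dendritic cells, 3 were lower, namely Cd74 (327 and 197 CPM, -0.73), Cd80 (16.03 and 7.45 CPM, -1.11) and the class II transactivator gene Ciita (-0.61), and Klrd1 was higher. H2-Aa (34.95 and 23.7 CPM) and H2-Ab1 (41.3 and 26.2 CPM) were limited by the selection. Cd74, the invariant chain, was not itself part of the selection. The limit on MHC class II removed cells rich in Cd74, however, so its level is not independent of that limit and is a description only. In nonclassical monocytes Cd74 had 446 and 471 CPM (0.08). In MHC class II-high monocytes and dendritic cells, which that limit left out, Cd74 was higher in APP/PS1, with 5703 and 6703 CPM. Of 11 tested glucocorticoid and clock genes, Per1 (149 and 89.0 CPM, -0.74) and Il1r2 (54.8 and 37.3 CPM, -0.56) were lower. Of 13 coagulation and complement genes, Serpinb6a was lower (-0.65), and Thbs1 had 712 and 719.7 CPM.

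The same genes were then read in nonclassical monocytes and neutrophils. These cells come from the same libraries, so their values are not independent support and are set side by side only. Jun had log2 ratios of 1.44 in classical monocytes, 1.17 in nonclassical monocytes and 0.80 in neutrophils. Cd14 had -1.09, -1.46 and -1.60, Ccrl2 had 1.04, 0.96 and 0.89, and Per1 had -0.74, -0.80 and -0.86. Hebp1 had -5.63, -4.36 and, with 2 UMIs in APP/PS1, -7.36 (-10.42 to -5.50). Each of these genes had the same sign in the 3 kinds of cell. Apoe had 0.96, -0.18 and -0.23, with counting intervals that did not overlap between classical monocytes and either of the others. Arsb had 1.32, 0.03 and 0.60 (0.21 to 1.01), and Cd74 had -0.73, 0.08 and -0.28. Egr1 was lower in classical monocytes at -0.60 and higher in nonclassical monocytes at 0.90 and in neutrophils at 0.67. Whether such differences between cell types exceed the spread between mice was not tested, as each value rests on the same pair of libraries.

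**Figure D5:**
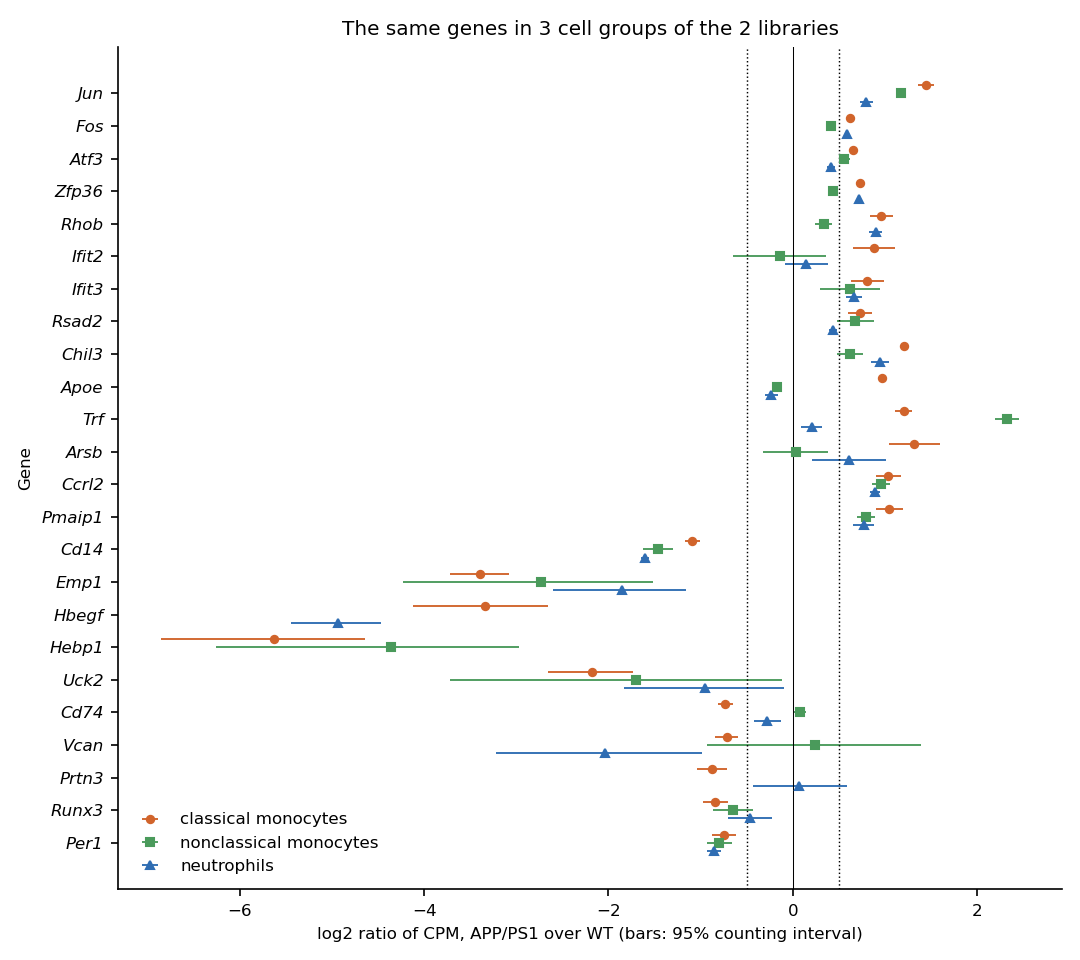
Log2 ratio of CPM, APP/PS1 over WT, with 95% counting intervals, for 24 genes in classical monocytes (orange circles), nonclassical monocytes (green squares) and neutrophils (blue triangles) of the same libraries, with 3 points under 4 UMIs in a library left out. Jun, Ccrl2 and Pmaip1 lie to the right and Cd14, Runx3 and Per1 to the left in all 3 groups, whereas Apoe lies to the right in classical monocytes and to the left of 0 in the other groups.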

How the data were processed

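The authors deposited raw UMI counts per gene and cell for 2 10x Genomics 3' libraries, made with Cell Ranger 5.0.0 and the mm10 reference, with no normalization. Counts were read for 32285 genes with Python 3.11.15, SciPy 1.17.1 and pandas 2.3.3, and summed over the selected cells of a library as CPM. The UMIs per library were 92458623 (WT) and 84870864 (APP/PS1). The members and the gene lists were chosen with earlier results of these data known. Poisson intervals of CPM, conditional intervals of ratios and Clopper-Pearson intervals of shares were exact, and differences in shares had Newcombe intervals. Intervals of CPM and of ratios take each UMI as independent and do not cover the spread between cells. None of the intervals covers differences between mice or libraries. The interval code was tested on simulated data that held counting error only. That test does not show how well the intervals hold where a gene varies between cells.

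Genes with at least 200 UMIs over both libraries (called tested in the text) were called higher or lower from a log2 ratio of 0.5, with no statistical test. Genes were named if they chose the cells, were among the 10 highest or 10 lowest ratios with at least 200 UMIs in 1 library, were the highest, lowest or most abundant of a list, were among the 10 most variable genes, or were among the 10 highest or lowest ratios of classical over nonclassical cells. Other genes were named after their values were seen, mainly list members past the threshold. Of 588 list entries 585 matched the gene table. Coordinates are those of GENCODE M21 (mm10), in which 32158 gene IDs matched. For doublets, Scrublet (scanpy 1.11.5) was run on each library. Its automatic threshold called 0 APP/PS1 cells, so the WT threshold was applied to both libraries after this was seen. Called doublets were kept, and left out in an alternative. Library sizes by edgeR 4.0.16 (TMM) were another alternative. Values of a few further genes are not reported here.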

Additional observations from a re-analysis of the deposited data

How the results depend on the processing

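The difference in the share of classical monocytes among cells that passed the UMI and mitochondrial limits was negative under all 8 alternative choices of cells, from -2.35 percentage points with cells between the 5th and 95th percentile of UMIs and genes to -1.61 with called doublets removed. Among classical and nonclassical monocytes together it was positive, at 3.74 points, and the 8 choices were not run for that denominator. The numbers of higher and lower genes stayed within 1.5 times of 108 and 132 under these choices, TMM library sizes, scaling without abundant classes and means over cells. The genes themselves changed more. With called doublets removed, 78 of 105 higher and 95 of 122 lower genes were among those reported. With the percentile limits these were 75 of 90 and 96 of 138. Leaving out cells with NK genes gave 74 higher and 128 lower genes of 6529, of which 61 and 92 were among those reported. The count depended on depth: 35 and 31 of 2853 genes passed with a minimum of 1000 UMIs. With a minimum of 20 UMIs, where counting error is large, 762 and 599 of 10861 passed. In cells thinned to 1000 UMIs 30 and 43 of 1721 passed, of which 18 and 16 were among those reported. These settings test fewer or more genes by construction. Of 477 values of 40 followed genes under alternatives none reversed in sign. Rsad2, at 0.73, was at 0.4988 in thinned cells, the only value of a gene past the threshold that came under it. Apoe ranged from 0.94 to 1.03, Jun from 1.25 to 1.53, Chil3 from 1.16 to 1.32 and Cd14 from -1.16 to -1.04. Ccl5 ranged from 0.59 to 1.93, Gzma from 0.96 to 1.66, Nkg7 from 0.65 to 1.70, Dusp16 from -1.29 to -0.63, Skint3 from -1.90 to -0.91, Tgm2 from -1.48 to -0.63, Hebp1 from -6.84 to -5.55 and Egr1 from -1.15 to -0.59. The median of the interferon list ranged from 0.13 to 0.22 and that of the chemokine list from 0.12 to 0.33. Among the lists of other cells, the median ranged from 0.59 to 1.58 for NK and from -1.70 to -0.11 for erythroid genes. For neutrophil genes it ranged from -0.06 to 0.42 and so took both signs. The settings that left out cells with NK genes or with over 1% S100a8 and S100a9 were chosen after seeing the data. No paired analysis was possible because there is 1 library per genotype. No replicate could be left out for the same reason.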

Other observations

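Genes outside the lists formed a few visible groups, which were noticed in the data and are given as values. Of 11 tested histone genes of the Hist1 cluster, which supply chromatin proteins and have close copies that may share reads, 10 were higher in APP/PS1 classical monocytes by the threshold and none was lower, against 1.53% and 1.88% of all tested genes. Their median log2 ratio was 0.74, and together they had 599.7 and 969 CPM in the WT and APP/PS1 cells. Hist1h1c, a linker histone gene, had 154 and 277 CPM (0.85). The replication-independent histone gene H3f3b, in another place of the genome, had 2801 and 4471 CPM (0.67).

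Ribosomal protein genes were level, with a median of 0.01 over 90 tested genes and sums of 193836 and 193152 CPM. The exception was Rpl29, with 1223 and 649 CPM in the WT and APP/PS1 cells (-0.91). The 13 mitochondrial genes summed to 28820 and 24664 CPM. Gm42418 had 17467 and 25128 CPM (0.52).

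Hebp1, Emp1 and Dusp16, which were among the 10 lowest ratios, lie close to each other on chromosome 6. Between 134 and 136 Mb of mm10, 3 of 8 tested genes (37.5%) were past the threshold, against 3.41% of all tested genes, and the 5 between or beside them, Etv6, Lrp6, Borcs5, Cdkn1b and Ddx47, had log2 ratios from -0.18 to 0.04. Hebp1 is at chr6:135137522-135198022 (minus strand) and Emp1 at chr6:135362545-135383173 (plus strand). Hbegf and Cd14, also among the 10 lowest, lie close to each other on chromosome 18. Between 36 and 37 Mb, 2 of 12 tested genes (16.7%) were past the threshold, and the other 10 had log2 ratios from -0.30 to 0.14. On whole chromosomes 6 and 18, 5.63% and 5.98% of tested genes were past it. Both windows were chosen after the values were seen. The strain of the WT donors of this library is not given in the sources used here, so genotype and genetic background cannot be told apart.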
